A study of Mus musculus with 10 samples.

Results

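The genes described here are 39 genes of the hypoxia response and of glycolysis, examined in the palate of mouse embryos with and without the type II TGF-beta receptor in the neural crest. They comprise 12 enzymes of glycolysis and 27 other genes whose products sense oxygen, respond to its lack, or carry and regulate glucose metabolism. A gene was measured when a probe set (the group of probes that reports 1 transcript on the array) carried that gene's symbol, current or former, and no other. Under that rule 36 of the 39 were measured, among 18194 genes in all, and the brightest probe set on average over the 10 arrays stood for each gene. Gpi1 and Eno1 were not matched to a probe set, and the 3 probe sets of Bnip3l carry a second symbol as well, so these 3 genes were not analysed here. Ero1l was measured under its current symbol, Ero1a.

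When oxygen is plentiful, prolyl hydroxylases encoded by the Egln genes mark the alpha subunits of the hypoxia-inducible factor (HIF), and the von Hippel-Lindau protein then directs their breakdown. When oxygen is low the alpha subunits, encoded by Hif1a and Epas1, persist, pair with the partner encoded by Arnt and bind DNA near genes for vessel growth, glucose uptake, glycolysis, acid balance and mitochondrial turnover. The alpha subunits are controlled mainly as proteins, so the level of their transcripts is not a measure of HIF activity. Glycolytic enzymes are also made in every cell that is well supplied with oxygen, and rapidly growing embryonic tissue uses glycolysis heavily.

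RNA of the secondary palate at E14.5, the stage at which the palatal shelves fuse, was hybridised to 10 arrays. The 5 mutant samples have the genotype Tgfbr2fl/fl;Wnt1-Cre, in which a recombinase expressed in the neural crest removes the floxed alleles, and the 5 controls have the genotype Tgfbr2fl/fl and are called wildtype in the titles. Both groups thus carry floxed Tgfbr2 alleles, the strain is given as C57B6 for both, and the sex was not determined. The Y-linked gene Eif2s3y read 9.0 to 9.3 in 4 mutants and 5.1 in mutant replicate 5, and 9.0 and 9.1 in 2 controls and 3.2 or 3.3 in the other 3, so its level was unevenly spread over the groups. Epithelium, endothelium, blood cells and the myogenic cells of the palate do not come from the neural crest and keep the receptor, whereas pericytes and smooth muscle of craniofacial vessels do come from it. The labels do not say whether each sample is a separate embryo. The p-values set each difference only against the scatter of these samples, which may be technical. In bulk tissue, fewer cells of a type and less RNA per cell cannot be told apart.

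Values are log2 expression after RMA, deposited with 1 decimal, so a difference of 0.1 is a single step. Differences are mutant minus control and were tested with limma over all 18194 genes, and a gene is called at an adjusted p under 0.05 (Benjamini-Hochberg). The number of arrays limits the precision. Control replicate 1 stood apart, with correlations of 0.985 to 0.989 with the other 9 arrays, which correlated with each other at 0.989 to 0.996. Values without it are given for members whose call or direction it changes or whose difference it moves by over 1.5 times. Members with a difference within 0.04 of 0 are left out of this. The tissue carried its defining markers, with the mesenchyme genes Prrx1 at 12.36 in mutant and 12.24 in control arrays and Pdgfra at 11.78 and 11.68, and the epithelial keratin gene Krt15 at 12.24 and 11.96.

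Some of the oxygen-regulated genes rose in the mutant palate, led by Adm, Ndrg1, Vegfa and Car9. Of the 36 measured members, 11 were called higher and none lower by limma, and 25 were not called. Over all genes, 2.90% were called higher and 5.36% lower. At an unadjusted p under 0.05, 21 members were higher and 0 lower, against 1826 higher and 2755 lower of all 18194 genes. The median log2 difference was 0.18 over the members, with 31 positive, 3 negative and 2 at 0, against a median of 0 over all genes, of which 46.2% were positive. The changes were small, between 1.2-fold and 1.56-fold for the 11 called members, and 1 of them reached 1.5-fold.

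Differences were smaller among the enzymes of glycolysis. Among 26 other oxygen-regulated genes, 10 were called higher, with a median log2 difference of 0.24. Among the 10 glycolytic enzymes measured among the members, all had a positive difference, but 1 was called, and the median was 0.11. All 5 mutant arrays lay above all 5 controls for 11 of the 26 other genes and for 0 of the 10 enzymes, against 1.82% of all genes; all mutants lay below all controls for 0 of the 36 members and 4.93% of all genes. The difference between these classes was not tested. By the mean over all 10 arrays, 35 of the members lay among the brighter 60% of genes, in which 2.72% were called higher. Adm was among them only through its mutant arrays, as its control mean of 6.56 lay below the limit of 6.58.

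**Figure D1:**
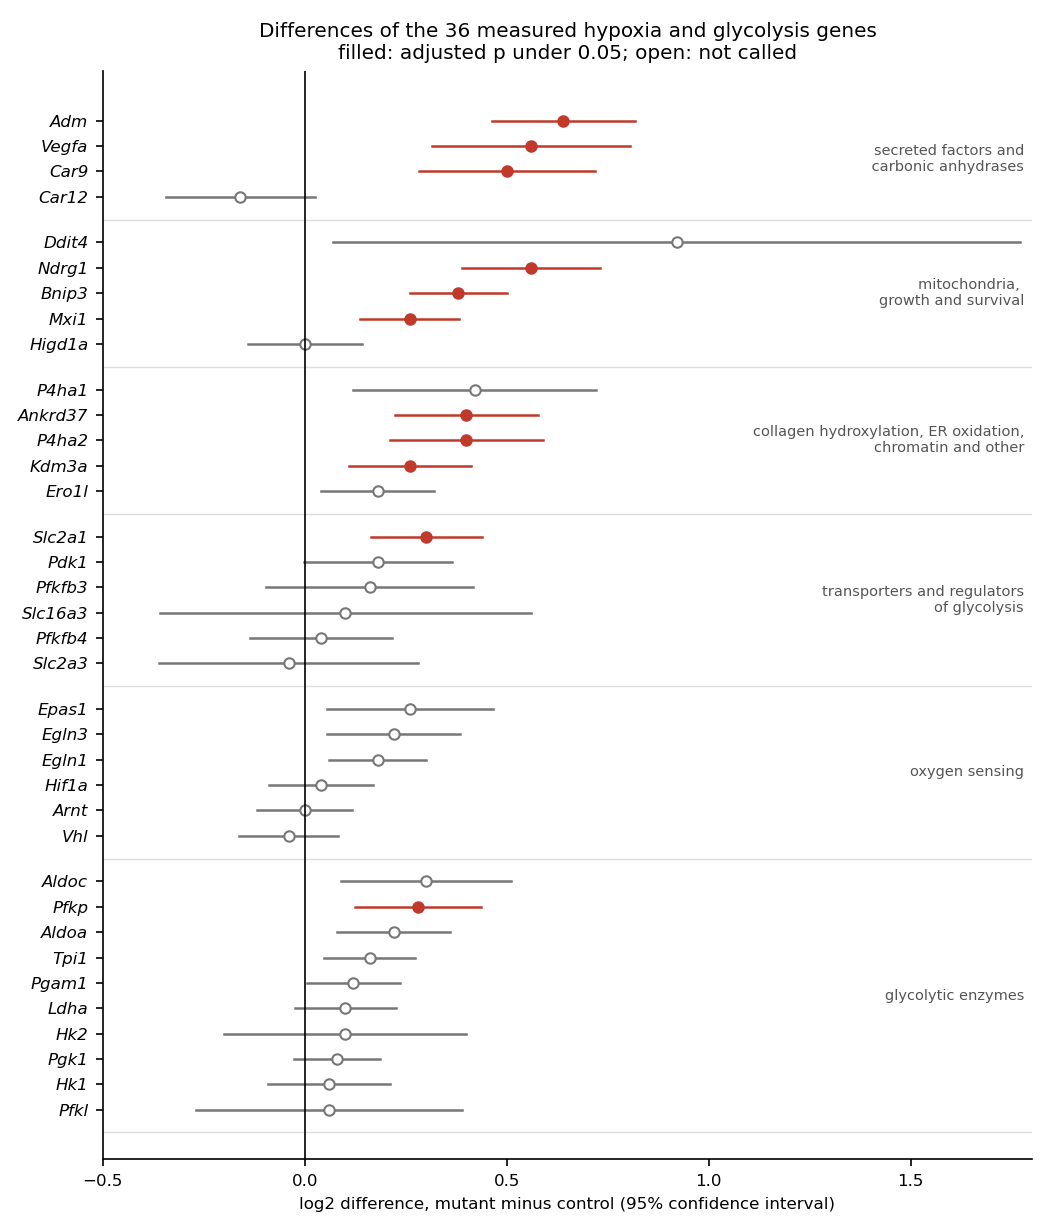
Log2 difference, mutant minus control, on the horizontal axis for each of the 36 measured members, grouped by role, with the 95% confidence interval as a line; filled red points are called higher at an adjusted p under 0.05 and open grey points are not called. The filled points lie between 0.26 and 0.64, the glycolytic enzymes at the bottom lie between 0.06 and 0.30, and Ddit4 has the widest interval, from 0.07 to 1.77.

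HIF binds a short core element that reads ACGTG or GCGTG, so the letters upstream of the members' start sites were examined. RefSeq promoter windows of 300 bases (250 before and 50 after the start, build GRCm38.p6) were found for 33 of the 36 measured members; Epas1, Ndrg1 and Slc2a3 had none. Read on both strands, ACGTG was present in a window of 23 of the 33 members (69.7%), against 21.8% of 27025 genes with a window, measured here or not. By window, the shares were 57.8% of the members' 45 windows and 19.6% of all windows. The members were listed as hypoxia response and glycolysis genes, so this comparison with all genes is no independent evidence. ACGTG or GCGTG was present for 30 members (90.9%), against 46.7%. The palindrome CACGTG holds ACGTG on each strand and was counted on both. The share with ACGTG was 7 of 10 among called members (70.0%) and 16 of 23 among those not called (69.6%). The members' windows were richer in CG, with a median of 21 CG dinucleotides per window against 7 over all windows. Among all windows with at least 21, 29.0% held ACGTG, against 79.2% of the members' 24 such windows. A match is a run of letters, not a measured binding site, and these arrays give no reading of binding.

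Shown here are the 250 bases upstream of the start for 5 called members with a single window that holds ACGTG in these 250 bases, and for Ldha, a glycolytic enzyme gene that was not called but whose first window holds the most such matches among the members. Each is written 5′ to 3′ along the gene's strand, in lower case, with the core element in capitals on whichever strand it reads.
Bnip3: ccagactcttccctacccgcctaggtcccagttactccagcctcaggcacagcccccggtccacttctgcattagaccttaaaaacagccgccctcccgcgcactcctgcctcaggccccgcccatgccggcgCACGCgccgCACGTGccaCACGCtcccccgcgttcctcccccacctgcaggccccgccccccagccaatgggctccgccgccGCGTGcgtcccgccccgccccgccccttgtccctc
Ankrd37: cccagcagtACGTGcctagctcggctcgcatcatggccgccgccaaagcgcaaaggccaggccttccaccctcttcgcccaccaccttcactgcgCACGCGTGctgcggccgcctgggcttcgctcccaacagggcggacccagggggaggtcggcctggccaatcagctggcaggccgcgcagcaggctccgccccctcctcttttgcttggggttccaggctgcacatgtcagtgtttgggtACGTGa
P4ha2: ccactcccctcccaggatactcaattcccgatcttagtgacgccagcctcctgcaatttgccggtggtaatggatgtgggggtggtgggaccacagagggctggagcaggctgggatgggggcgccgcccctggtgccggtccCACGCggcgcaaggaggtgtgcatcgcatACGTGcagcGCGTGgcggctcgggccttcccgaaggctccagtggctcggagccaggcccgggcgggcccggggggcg
Car9: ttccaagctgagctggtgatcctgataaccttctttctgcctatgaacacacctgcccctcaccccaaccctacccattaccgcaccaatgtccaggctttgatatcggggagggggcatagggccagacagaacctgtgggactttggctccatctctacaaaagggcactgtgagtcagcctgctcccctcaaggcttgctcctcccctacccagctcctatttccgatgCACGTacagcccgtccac
Slc2a1: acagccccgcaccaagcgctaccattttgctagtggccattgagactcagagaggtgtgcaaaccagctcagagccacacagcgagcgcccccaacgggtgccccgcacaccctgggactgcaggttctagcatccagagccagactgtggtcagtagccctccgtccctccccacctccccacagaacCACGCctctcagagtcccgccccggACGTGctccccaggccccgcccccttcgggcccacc
Ldha: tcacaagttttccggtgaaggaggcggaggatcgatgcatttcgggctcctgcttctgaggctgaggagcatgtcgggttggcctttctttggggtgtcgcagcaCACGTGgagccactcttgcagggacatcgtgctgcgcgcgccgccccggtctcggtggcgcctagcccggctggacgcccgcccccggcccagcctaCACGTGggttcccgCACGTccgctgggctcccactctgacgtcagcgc
The Bnip3 region is chr7:138909507-138909756 on the minus strand, that of Ankrd37 chr8:45999851-46000100 on the minus strand and that of P4ha2 chr11:54100674-54100923 on the plus strand. The Car9 region is chr4:43506776-43507025, that of Slc2a1 chr4:119108495-119108744 and that of Ldha chr7:46845554-46845803, all on the plus strand. Bnip3 has 2 matches to ACGTG, which are both strands of 1 CACGTG, and 3 to GCGTG, and its nearest ACGTG match begins 107 bases before the start. The nearest ACGTG begins 18 bases before the start in Car9, 6 in Ankrd37, 36 in Slc2a1 and 78 in P4ha2. Ldha has 5 matches to ACGTG, of which 4 come from 2 copies of CACGTG, and the nearest begins 34 bases before the start.

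Of the genes for secreted factors and acid balance, 3 of 4 were higher. Adm encodes adrenomedullin, a secreted peptide that widens vessels and supports lymphatic growth. It read 7.0, 7.2, 7.3, 7.3 and 7.2 in mutant replicates 1 to 5 and 6.5, 6.8, 6.5, 6.5 and 6.5 in control replicates 1 to 5. Every mutant array was above every control array, and control replicate 2 was the highest control. The means were 7.20 ± 0.12 and 6.56 ± 0.13 (SD, n = 5 each), a 1.56-fold difference (log2 0.64, SE 0.08, adjusted p = 0.00160). A second, dimmer probe set of Adm differed by 0.38 and did not pass when each probe set was tested (adjusted p = 0.0829).

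Vegfa encodes the main growth factor for blood vessels. It read 9.4, 9.3, 9.5, 9.5 and 9.6 in mutant arrays and 8.6, 8.7, 8.9, 9.2 and 9.1 in control arrays, in replicate order. The controls were spread over 0.6 and the mutants over 0.3, without overlap. Vegfa was 1.47-fold higher (9.46 ± 0.11 against 8.90 ± 0.26, SD, n = 5 each; log2 0.56, SE 0.11, adjusted p = 0.0139), and 0.49 higher without control replicate 1, its lowest array. The second probe set of Vegfa differed by 0.32 and was not called (adjusted p = 0.174).

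Car9 and Car12 encode carbonic anhydrases at the cell surface, of which Car9 is a widely used marker of low oxygen. Car9 read 6.3, 6.5, 6.5, 6.5 and 6.3 in mutant arrays and 6.1, 6.1, 5.8, 5.6 and 6.0 in controls. The groups did not overlap, and the difference was 1.41-fold (log2 0.50, SE 0.10, adjusted p = 0.0139). Its level lay below 6.58, the limit of the brighter 60% of genes, so Car9 is the 1 member that a filter on dim genes removes. Car12 read 6.5 to 6.7 in mutants and 6.6 to 7.0 in controls and was not called (-0.16, 95% confidence interval -0.35 to 0.03, adjusted p = 0.268).

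Among genes of mitochondria, growth and survival, 3 of 5 were higher. Ndrg1, a gene induced by low oxygen and by differentiation, read 9.9, 9.8, 10, 9.8 and 9.7 in mutants and 9.4, 9.4, 9.1, 9.3 and 9.2 in controls. The highest control stayed 0.3 below the lowest mutant. The difference was 1.47-fold (log2 0.56, SE 0.08, adjusted p = 0.00233), and its 5 probe sets differed by 0.36 to 0.60, of which 4 were called. Bnip3, which encodes a receptor for the removal of mitochondria by autophagy, read 10.8, 10.7, 10.8, 10.8 and 10.8 in mutants and 10.5, 10.3, 10.4, 10.4 and 10.4 in controls. The groups did not overlap and each was spread over at most 0.2, so a 1.30-fold difference (log2 0.38, SE 0.06) gave an adjusted p of 0.00282.

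Mxi1, which encodes an antagonist of MYC, was 1.2-fold higher (log2 0.26, SE 0.06, adjusted p = 0.0189). It read 9.4, 9.4, 9.5, 9.5 and 9.5 in mutants and 9.3, 9.1, 9.2, 9.2 and 9.2 in controls. The groups did not overlap, but its second probe set differed by only 0.04, and the call was lost without mutant replicate 3 (adjusted p = 0.0509) and with the mean of both probe sets (0.15, adjusted p = 0.102). Ddit4 encodes an inhibitor of mTOR signalling that is induced by low oxygen, stress and glucocorticoids. It read 11, 11.1, 11.2, 11.2 and 11.3 in mutants and 8.4, 10.6, 10.4, 10.9 and 10.9 in controls. All mutants were above all controls, but control replicate 1 lay 2.0 below the next control. With that array the difference was 0.92 (SE 0.39, adjusted p = 0.168), and without it 0.46 (SE 0.11, adjusted p = 0.0257), so the call depended on it. Higd1a, a hypoxia-inducible mitochondrial gene, stood at 10.84 in both groups (95% confidence interval of the difference -0.14 to 0.14), and its other 2 probe sets each differed by 0.18 without a call.

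**Figure D2:**
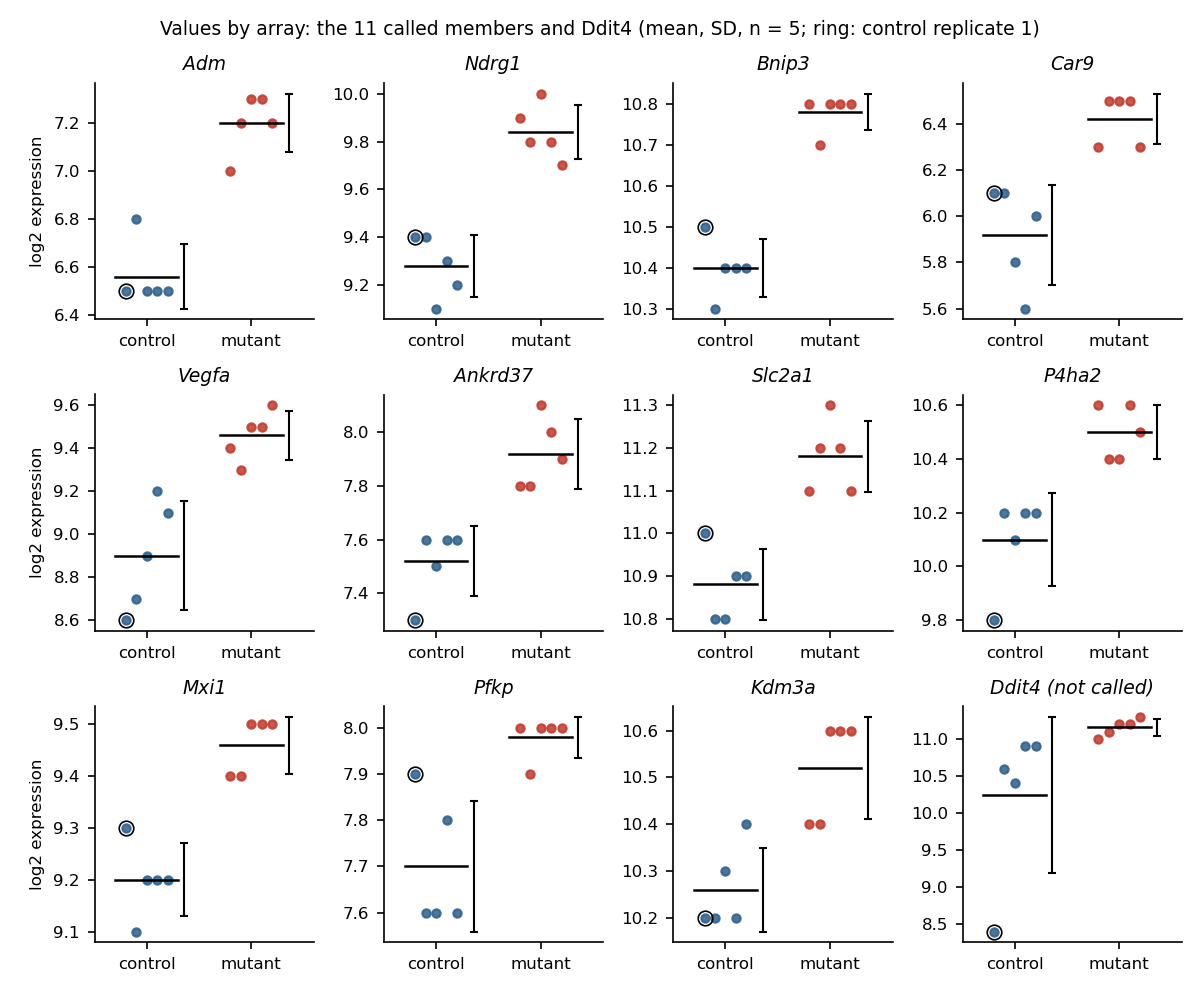
Log2 expression of each array for the 11 called members, in order of p, and for Ddit4, with controls in blue and mutants in red; the horizontal line is the mean of 5 arrays, the bar beside it the SD, and the ring marks control replicate 1. The vertical axes differ between panels and do not start at 0; the groups do not overlap for Adm, Ndrg1, Bnip3, Car9, Vegfa, Ankrd37, Slc2a1, P4ha2, Mxi1 and Ddit4, and they meet for Kdm3a (at 10.4) and Pfkp (at 7.9).

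Of the genes that modify collagen, proteins and chromatin, 3 of 5 were higher. P4ha1 and P4ha2 encode the catalytic subunits of collagen prolyl 4-hydroxylase, which stabilises the collagen triple helix. P4ha2 read 10.6, 10.4, 10.4, 10.6 and 10.5 in mutants and 9.8, 10.2, 10.1, 10.2 and 10.2 in controls. The groups did not overlap, and the difference was 1.32-fold (log2 0.40, SE 0.09, adjusted p = 0.0189). P4ha1 read 10.4, 10.3, 10.3, 10.4 and 10.3 in mutants and 9.3, 10.1, 10.1, 10.1 and 10 in controls. Its groups did not overlap either, but control replicate 1 was 0.7 below the next array, and P4ha1 was not called (0.42, SE 0.14, adjusted p = 0.0813). Without that array the P4ha1 difference was 0.27 (SE 0.05, adjusted p = 0.0129) and that of P4ha2 0.33 (SE 0.06, adjusted p = 0.0120).

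Control replicate 1 was also low in osteoblast markers. Its median deviation over the 6 measured osteoblast genes was -0.91, while the other 4 controls lay at -0.145 to 0.06 and the mutants at 0.05 to 0.39. The part of that array's composition in P4ha1, P4ha2, Vegfa and Ddit4 was not tested beyond leaving it out. Ankrd37, an ankyrin repeat gene known as a HIF target, read 7.8, 7.8, 8.1, 8.0 and 7.9 in mutants and 7.3, 7.6, 7.5, 7.6 and 7.6 in controls. The groups did not overlap (1.32-fold, log2 0.40, SE 0.08, adjusted p = 0.0150). Kdm3a, a histone demethylase gene induced by HIF, read 10.4, 10.4, 10.6, 10.6 and 10.6 in mutants and 10.2, 10.2, 10.3, 10.2 and 10.4 in controls. Its groups met at 10.4, and the difference was 1.2-fold (log2 0.26, SE 0.07, adjusted p = 0.0395). Kdm3a missed the threshold in 7 of the 10 leave-one-out fits (adjusted p 0.0530 to 0.0948). Among these was the fit without control replicate 1 (0.245, adjusted p = 0.0530). Ero1l, which encodes an oxidase that forms disulfide bonds in the endoplasmic reticulum, differed by 0.18 and was not called (adjusted p = 0.105).

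Of 6 transporters and regulators that set the flow into and out of glycolysis, the main glucose transporter was the 1 called gene. Slc2a1, encoding GLUT1, read 11.1, 11.2, 11.3, 11.2 and 11.1 in mutants and 11, 10.8, 10.8, 10.9 and 10.9 in controls. The groups came within a single step of 0.1 but did not overlap, and Slc2a1 was 1.23-fold higher (log2 0.30, SE 0.06, adjusted p = 0.0169). Its 3 probe sets differed by 0.22 to 0.30, and 2 were called. With the level of Eif2s3y as a covariate, 3 calls were lost, with differences of 0.24 for Slc2a1 (adjusted p = 0.0650), 0.24 for Mxi1 (0.0644) and 0.19 for Pfkp (0.125). Slc2a3, another glucose transporter gene, read 9.2 to 9.5 in mutants and 9.0 to 9.9 in controls, with a difference of -0.04 (95% confidence interval -0.36 to 0.28). Its direction turned to 0.10 without control replicate 1, its highest array. Slc16a3, which encodes the lactate exporter MCT4, ranged from 6.7 to 8.0 within the mutants alone, and its interval of -0.36 to 0.56 spans more than a 1.2-fold change in either direction.

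Pdk1 encodes a kinase that keeps pyruvate out of the mitochondrial oxidation pathway. Its brightest probe set differed by 0.18 (adjusted p = 0.208). Its other 3 probe sets differed by 0.16, 0.28 and -0.26, of which the second was called (adjusted p = 0.0274). The -0.26 came from the dimmest probe set, with a mean of 6.47 and an SE of 0.54, and so gives no direction. Pfkfb3 and Pfkfb4, which encode the enzymes that set the level of fructose 2,6-bisphosphate, differed by 0.16 and 0.04 and were not called (adjusted p = 0.431 and 0.797). Without control replicate 1 the Pfkfb3 difference was 0.085 (adjusted p = 0.653).

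None of the 6 oxygen-sensing genes was called by limma with all arrays, and 3 had an unadjusted p under 0.05, all higher. Of all 18194 genes, 1826 were higher and 2755 lower at that threshold. Hif1a read 11.5, 11.4, 11.5, 11.5 and 11.4 in mutants and 11.5, 11.3, 11.4, 11.4 and 11.5 in controls. The arrays overlapped almost fully (0.04, 95% confidence interval -0.09 to 0.17), and its 3 dimmer probe sets differed by -0.02, -0.14 and -0.08. Arnt stood at 8.86 in both groups, with an interval of -0.12 to 0.12. Vhl read 8.8 or 8.9 in mutants and 8.8 to 9.0 in controls (-0.04, interval -0.16 to 0.08). For these 3 genes the interval excludes a 1.2-fold rise.

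Epas1 and the prolyl hydroxylase genes, some of which HIF is known to induce, had positive differences without a call. Egln1 read 9.7, 9.7, 9.7, 9.6 and 9.7 in mutants and 9.5, 9.5, 9.5, 9.6 and 9.4 in controls. Only mutant replicate 4 and control replicate 4 met, at 9.6 (0.18, SE 0.06, adjusted p = 0.0662). Egln1 was called among the brighter 60% of genes (adjusted p = 0.0376) and with array weights (0.0440), and its second probe set differed by -0.02. Egln3 read 7.9 to 8.3 in mutants and 7.8 to 8.0 in controls (0.22, SE 0.08, adjusted p = 0.0944), and its second probe set differed by 0.36 (adjusted p = 0.0657). Egln3 was called with the mean of both probe sets (0.29, adjusted p = 0.0415) and without mutant replicate 1 (0.28, adjusted p = 0.0472). Epas1 read 9.7, 9.7, 9.9, 9.8 and 10 in mutants and 9.3, 9.8, 9.6, 9.5 and 9.6 in controls (0.26, SE 0.09, adjusted p = 0.110). Control replicate 2 overlapped with the mutants, and the difference was 0.20 without control replicate 1. With Eif2s3y as a covariate, Epas1 was called (0.39, adjusted p = 0.0234).

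Along the 10 enzymes measured among the members the differences were small from the first to the last. The list of 26 other glycolysis and pyruvate genes had 7 positive differences, 16 negative and 3 at 0. Gapdh (-0.02) and Pkm (0.00), named after their values were seen, are enzymes of glycolysis on that list. Hexokinase, which traps glucose in the cell, is encoded by Hk1 and Hk2. Hk2 read 9.2 in all 5 mutants and 8.5, 9.1, 9.2, 9.4 and 9.3 in controls (0.10, 95% confidence interval -0.20 to 0.40), and its direction turned to -0.05 without control replicate 1. Hk1 differed by 0.06 (interval -0.09 to 0.21). Neither gene's groups were separated.

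Phosphofructokinase catalyses the committed step. Pfkp, its platelet-type subunit, read 8.0, 7.9, 8.0, 8.0 and 8.0 in mutants and 7.9, 7.6, 7.6, 7.8 and 7.6 in controls. Control replicate 1 met the lowest mutant at 7.9, and Pfkp was the 1 called enzyme (1.21-fold, log2 0.28, SE 0.07, adjusted p = 0.0346). Its other 2 probe sets differed by 0.12 and 0.30 and were not called. Pfkp missed the threshold in 8 of the 10 leave-one-out fits (adjusted p 0.0509 to 0.0812), and when arrays were centred on their medians (0.0815). Pfkl, the liver-type subunit, read 9.3 in mutant replicate 3 and 10 to 10.2 in the other 4 mutants, against 9.9 to 10 in controls (0.06, SE 0.15, adjusted p = 0.847), and its dimmer probe sets differed by 0.14 and 0.32. The log2 fold change of Pfkl was 0.23 without mutant replicate 3 (adjusted p = 0.0726).

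Aldolase splits the sugar into trioses. Aldoa read 11.9, 11.9, 11.9, 11.8 and 11.9 in mutants and 11.8, 11.6, 11.5, 11.7 and 11.7 in controls (0.22, SE 0.06, adjusted p = 0.0554), and its 5 probe sets had positive differences of 0.12 to 0.24. Aldoc read 9.1, 9.1, 9.0, 8.9 and 8.8 in mutants and 9.0, 8.7, 8.6, 8.5 and 8.6 in controls (0.30, SE 0.10, adjusted p = 0.0790). For both genes control replicate 1 was the highest control and the only one to reach the mutants. Without it the differences were 0.26 for Aldoa (SE 0.06, adjusted p = 0.0218) and 0.38 for Aldoc (SE 0.07, adjusted p = 0.0134), and both were called. Including that fit, Aldoa was called in 5 of 20 alternative settings and Aldoc in 2. Among these were array weights, with an adjusted p of 0.0197 for Aldoa and 0.00941 for Aldoc.

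Tpi1, triose phosphate isomerase, read 12.6 in 4 mutants and 12.5 in the fifth, against 12.4 in 4 controls and 12.5 in control replicate 2 (0.16, SE 0.05, adjusted p = 0.0775). In 3 of 20 alternative settings Tpi1 was called. These were the brighter 60% of genes (adjusted p = 0.0428), another variance model (0.0321) and array weights (0.0405). Pgam1, phosphoglycerate mutase, differed by 0.12 (95% confidence interval 0.01 to 0.23, adjusted p = 0.180). Pgk1, phosphoglycerate kinase, read 12.4 in all 5 controls and 12.5 in 4 mutants (0.08, interval -0.03 to 0.19). Ldha makes lactate from pyruvate and is the end of the anaerobic branch. It read 12.4, 12.3, 12.3, 12.3 and 12.3 in mutants and 12.1, 12.3, 12.2, 12.3 and 12.2 in controls (0.10, SE 0.06, adjusted p = 0.306). The region upstream of Ldha shown above held 5 matches to ACGTG, and the gene's interval of -0.03 to 0.23 excludes a 1.2-fold change. Of the 9 enzymes not called, the interval of 5 reaches a 1.2-fold rise and that of 0 reaches 1.5-fold.

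**Figure D3:**
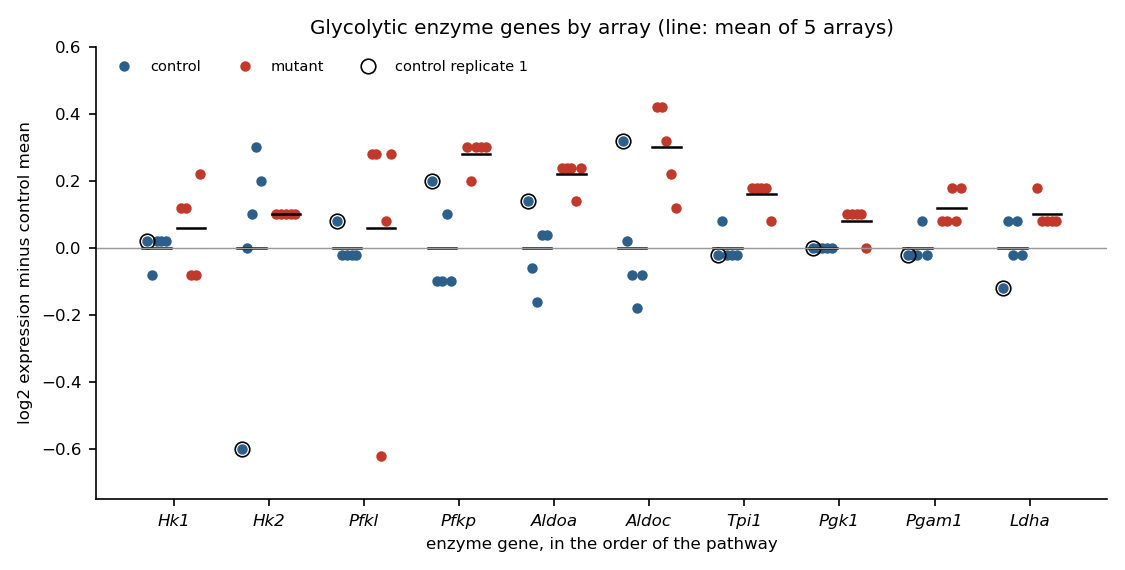
Log2 expression of each array minus the control mean, for the 10 measured enzyme genes in the order of the pathway, with controls in blue, mutants in red, the mean of 5 arrays as a line and control replicate 1 ringed. Mutant means lie 0.06 to 0.30 above the control means, and single low arrays stand out for Hk2 (control replicate 1) and Pfkl (mutant replicate 3).

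Other genes of the same pathways were mixed. Of 98 measured genes outside the members, 8 were higher (8.16%), 4 lower (4.08%) and 86 not called, with a median difference of 0. Among 49 further HIF targets, 6 were higher (12.2%) and 3 lower (6.12%), with a median of 0.14. Over all genes, 2.90% were called higher and 5.36% lower, so the shares of decreases were near that of all genes. Ndufa4l2, which encodes a mitochondrial protein that restrains respiration and is also a pericyte gene, read 10.1 to 10.7 in mutants and 9.0 to 9.8 in controls (2.17-fold, log2 1.12, SE 0.14, adjusted p = 0.00152). Ppp1r3c, which targets a phosphatase to glycogen, was 0.62 higher (SE 0.11, adjusted p = 0.00976) and Pygl, glycogen phosphorylase, 0.46 higher (SE 0.08, adjusted p = 0.00761). None of these 3 overlapped between groups. The glycogen synthase gene Gys1 (0.28, adjusted p = 0.0733) and the glycogen branching enzyme gene Gbe1 (-0.22, adjusted p = 0.233), named after their values were seen, are on the same list and were not called.

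Called decreases among HIF targets were those of Pgf, Cxcr4 and Tfrc. Pgf, a growth factor of the Vegfa family, read 6.6 to 7.3 in mutants and 7.4 to 7.6 in controls and fell by 0.62 (SE 0.12, adjusted p = 0.0122), opposite to Vegfa. Cxcr4, a chemokine receptor gene, fell by 0.66 (SE 0.16, adjusted p = 0.0304), and missed the threshold in 3 of the 10 leave-one-out fits. Tfrc, the transferrin receptor gene, fell by 0.28 (adjusted p = 0.0396) and was named after its value was seen, to complete the 3 decreases. It missed the threshold in 8 such fits, among them that without control replicate 1 (-0.24, adjusted p = 0.0541).

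Of 17 other oxygen-sensing genes, 1 was higher (5.88%). This was Hif3a, which encodes a HIF alpha protein whose short forms inhibit the others, at 9.8 to 10.1 in mutants and 9.1 to 9.7 in controls (0.42, SE 0.11, adjusted p = 0.0387). Hif3a missed the threshold in 6 of the 10 leave-one-out fits. Of 26 other genes of glycolysis and pyruvate use, Eno2, neuronal enolase, was 0.48 higher (adjusted p = 0.0362) and Slc16a1, the lactate and pyruvate transporter MCT1, fell by 0.26 (adjusted p = 0.0309), and 16 of the 26 differences were negative. Both missed the threshold in 6 such fits. None of 6 pentose phosphate genes was called by limma, although all 6 differences were negative, with Taldo1 nearest to a call (-0.26, adjusted p = 0.0804).

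**Figure D4:**
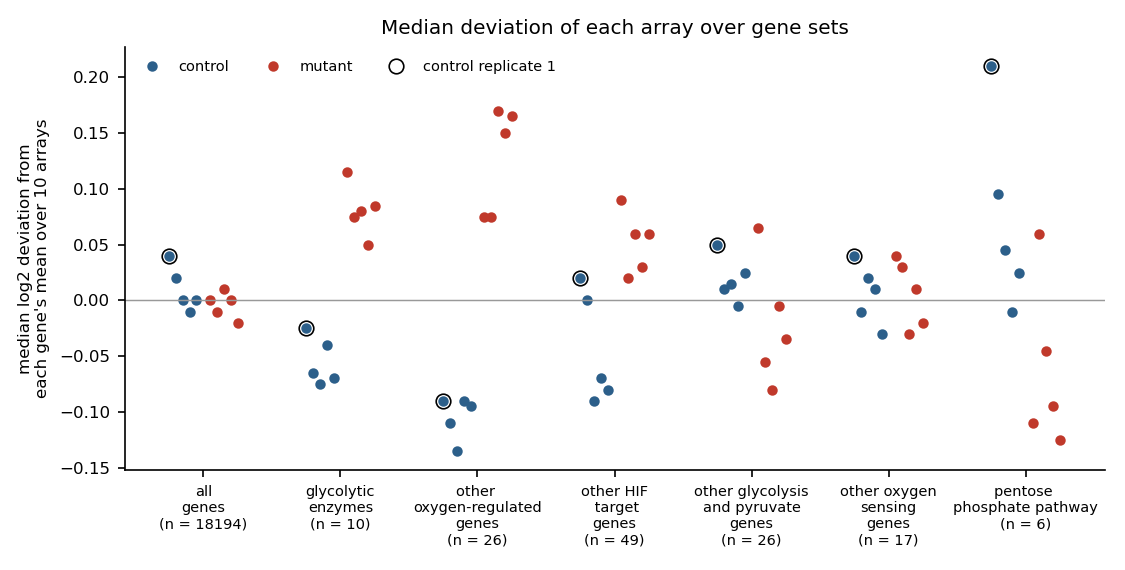
Median log2 deviation of each array from each gene's mean over 10 arrays, for all genes and for 6 gene sets with the number of genes in brackets; controls are blue, mutants red and control replicate 1 is ringed. Mutant arrays lie at 0.05 to 0.12 and controls at -0.08 to -0.02 over the glycolytic enzymes, at 0.08 to 0.17 and -0.14 to -0.09 over the other members, and the groups overlap over all genes.

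Genes of other cell types moved as follows, where 2.90% of all genes were called higher and 5.36% lower. Skeletal muscle markers fell with the mutation, 13 of 16 called and a median of -1.85, with array medians of -1.60 to 0.62 in mutants and 0.44 to 1.92 in controls; Acta1 and Myh3 differed by -2.18 and -2.58. Among 9 erythroid genes the median was -0.20 and 0 were called by limma; Hbb-y and Hba-x differed by -0.30 and -0.64. Among 12 endothelial genes 2 were lower and the median was -0.01 (Egfl7 -0.08, Emcn 0.00). The 2 lower genes were Cldn5 (-0.54) and Erg (-0.42), named after their values were seen. No macrophage, epithelial, osteoblast or neural gene of the lists was called by limma, with medians of -0.06, 0.16, 0.44 and 0.13 over 12, 12, 6 and 10 genes. All 6 osteoblast differences were positive, with Ibsp at 0.52 and Col1a1 at 0.36. Of the 6, 4 had an unadjusted p under 0.05, against 1826 of all 18194 genes that were higher at that threshold. Of the 12 epithelial differences, 10 were positive and 2 negative. At an unadjusted p under 0.05, 3 epithelial genes were higher and 1 lower, against 1826 and 2755 of all 18194 genes. Epithelial array medians overlapped, at -0.085 to 0.225 in mutants and -0.255 to 0.345 in controls. The part of these osteoblast and epithelial genes in the members' differences was not tested. The highest macrophage genes were Csf1r (0.14) and Mrc1 (-0.22), the highest epithelial genes Krt15 (0.28) and Krt14 (0.16), and the highest neural genes Stmn2 (0.34) and Fabp7 (0.18). Among 12 cartilage genes 1 was lower and the median was -0.09 (Col2a1 -0.02, Sox6 -0.10), and among 12 mesenchyme genes 1 was higher and the median was 0.11.

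Muscle medians and genotype largely moved together, and a fit with that median as a covariate called 1 of 18194 genes. In that fit all 11 called members kept a positive difference, from 0.22 to 0.67, with adjusted p between 0.118 and 0.463. The part of the lower muscle marker levels in the members' differences was not tested further.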

How the data were processed

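The deposited series table held log2 expression for 45101 probe sets on 10 arrays, computed by the authors with RMA, per the submitters' processing notes, and written with 1 decimal; scanner files and the genome build of the annotation were not used here. Probe sets were named through the platform annotation and current RefSeq symbols (34958 carried 1 symbol, 932 several and 9211 none). The brightest probe set stood for each of 18194 genes, and mutant and control arrays (5 each, grouped by their labels) were compared with limma 3.58.1 in R 4.3.3 (lmFit and eBayes, Benjamini-Hochberg over all genes, threshold 0.05). Individual probe sets were tested in the same way over all with 1 symbol. Rounding to 0.1 limits how finely small differences can be read. In data simulated for this comparison (18194 genes), 50 genes were altered at each size. Of these, 8 were called at 1.2-fold, 44 at 1.5-fold, 50 at 2-fold and 49 at 3-fold, with 6 unaltered genes. The simulation altered 200 genes in all, against 1503 called in these data, and no simulated array stood apart. The shares called may therefore differ in these data.

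The members, their roles, the other lists of genes and the naming rule were chosen with earlier results of these data known. All members could be named, with array values for called ones and for Hif1a, Epas1, Vhl, Egln1, Vegfa, Slc2a1 and Ldha (those of other members, such as Ddit4, P4ha1, Hk2, Aldoa and Aldoc, were added after their values were seen); up to 5 called genes were named from each other pathway list (or the 1 with the smallest p), and the 2 highest genes from each cell type list. Promoter windows came from RefSeq (GRCm38.p6). Alternatives were the mean of probe sets, single probe sets, a filter on dim genes, another variance model, 2 other normalizations, array weights, 2 covariates, a replicate block, a threshold of 0.01 and leaving out each array.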

Additional observations from a re-analysis of the deposited data

Results flagged for a closer look

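In 16 of the 72 groups of 5 arrays (36 members in each genotype), the highest or lowest array was farther from its neighbours than Dixon's 95% limit. Hk2 in mutants and Pgk1 in controls read the same in all 5 arrays and could not be flagged. Chance alone flags about 1 in 20 groups. Values rounded to 0.1 that differ in a single array by 1 step are flagged by construction. Larger gaps were those of control replicate 1 for Ddit4 (8.4, next 10.4), P4ha1 (9.3, next 10) and P4ha2 (9.8, next 10.1), of mutant replicate 3 for Pfkl (9.3, next 10), and of control replicate 2 for Adm (6.8, the others 6.5).

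The other 11 rest on 1 step of 0.1. In controls these were Pfkl in replicate 1 (10), Tpi1 in replicate 2 (12.5), Hk1 in replicate 2 (8.9) and Pgam1 in replicate 4 (11.6). In mutants they were Ldha in replicate 1 (12.4), Pfkp in replicate 2 (7.9), Bnip3 in replicate 2 (10.7), Aldoa in replicate 4 (11.8), Egln1 in replicate 4 (9.6), and Tpi1 (12.5) and Pgk1 (12.4) in replicate 5.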

How the results depend on the processing

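The count of 11 members called higher became 0 with the muscle median as a covariate, 5 with the replicate block, 3 at an adjusted p under 0.01, 8 to 14 over the 10 leave-one-out fits and 16 with array weights, the highest count; the other settings gave 9 to 13. For the 10 called among other oxygen-regulated genes the same settings gave 0, 5, 3, 8 to 11 and 12. The 1 called glycolytic enzyme became 0 with the mean of probe sets, centred arrays, either covariate, the block or the 0.01 threshold, 2 after quantile normalization, 3 among the brighter 60% of genes or with the trended robust fit, 4 with array weights and 0 to 3 in the leave-one-out fits. The number of all genes called, 1503, became 1 with the muscle covariate, 532 with the block and 307 at 0.01. It was 643 to 1798 with an array left out and 2240 with array weights, again the highest count. The 12 calls among pathway genes outside the members became 19 with weights, 0 with the muscle covariate, 4 with the block, 3 at 0.01 and 4 to 14 with an array left out. The cause of these changes was not tested.

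Without control replicate 1, 14 members were called, 10 of them shared with the 11; 8 of the 11 kept the call in all 10 leave-one-out fits. Directions turned for some members that were not called. Hk2 turned with weights (-0.038) and with an array left out (-0.05 to 0.18). Slc2a3 turned after quantile normalization (0.004), with weights (0.045) and with an array left out (-0.13 to 0.10). Slc16a3 turned with an array left out (-0.02 to 0.31). Pfkfb4 turned with the muscle covariate (-0.10) and with an array left out (-0.01 to 0.09). Hif1a turned with the mean of probe sets (-0.05), Vhl after quantile normalization (0.002) and Car12 with the muscle covariate (0.0072). Same-numbered mutant and control arrays did not deviate together (correlations of -0.10 to 0.11 over genes, and no mutant array matched the control of its own number best). The labels state no pairing, but deviations over all genes cannot exclude a weak one. With the replicate block Adm, Vegfa, Bnip3, Ndrg1 and Ankrd37 were still called. Signal over background could not be judged from RMA values.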
